A study of Sus scrofa with 4 samples.

Results

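Sertoli cells are the somatic cells of the seminiferous cord that enclose and nourish the germ cells. Their identity is set in the fetal gonad by a small group of transcription factors (SOX9, WT1, GATA4, NR5A1) and is read out by the hormone receptor FSHR, by the secreted signals AMH and DHH and by abundant secreted proteins such as CLU. A group of 10 genes of this kind was followed in cultured pig testis cells: SOX9, WT1, GATA4, NR5A1, CITED1, FSHR, AMHR2, AMH, DHH and CLU. They were taken by gene name from tables of 26921 genes and loci, and all 10 were present and passed the filter on low counts. Several of them are not restricted to Sertoli cells, since GATA4 and NR5A1 also act in Leydig cells and CLU is made by many cell types.

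The 4 libraries came from pig testis cells that the labels call immature spermatogonia: 2 libraries of ZBTB16 knockdown cells and 2 of control cells with the genotype WT. The design plans a lentiviral short hairpin RNA for the knockdown, and the labels do not say whether the control cells received a vector, so effects of the virus and of the knockdown cannot be told apart. The labels give neither breed nor age for the RNA samples, and the replicates come from 2 independent experiments, and whether these were separate animals is not stated. The p-values thus cover the spread among 2 libraries a group, which may be technical. Library totals were 18500447 and 16548342 expected counts in the knockdown, against 17283536 and 15983390 in the control. Mean fragments were 266.4 and 267.3 bases long in the knockdown libraries and 325.7 and 326.7 bases in the control libraries. Fragment length and knockdown therefore cannot be told apart. ZBTB16, the targeted gene, had 1.37 and 1.34 FPKM (fragments scaled by transcript length and library size) in the knockdown, against 1.77 and 1.76 in the control. Its fitted level was 0.779 times that of control (log2 -0.36, edgeR adjusted p = 0.00338). This call was lost in 4 of 15 alternative analyses, with DESeq2 (adjusted p = 0.0811), with limma on log2(FPKM + 1) (0.0685) and log2(FPKM + 0.1) (0.0719), and with limma on log2(TPM + 1), where the log2 change was -0.11 (adjusted p = 0.338).

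Sertoli identity genes were detected in every library, and their response was split. In the knockdown SOX9, WT1, GATA4, FSHR and, by a small margin, CLU rose, whereas AMH, DHH and NR5A1 fell, and AMHR2 and CITED1 did not pass the test. That is 8 of 10 genes called at an edgeR adjusted p under 0.05, while 46.4% of the 15763 genes tested were called (22.7% higher and 23.8% lower). The split of all calls depended on the unit: edgeR called 3574 genes higher and 3745 lower, limma 2038 and 3887 on log2(FPKM + 1), and limma 5449 and 1898 on log2(TPM + 1). No member changed 2-fold or more in the fit, the largest fitted fall being that of DHH to 0.618 times control and the largest rise that of SOX9 to 1.45 times. The median log2 change of the 10 was 0.12, beside 0.00 over all tested genes, since rises and falls stood side by side. In bulk RNA, fewer cells of a type and less RNA per cell cannot be told apart.

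By FPKM the order of the control levels was CLU, FSHR, CITED1, GATA4, SOX9, WT1, NR5A1, AMH, AMHR2 and DHH. CLU stood at rank 51 and 52 of 26921 in the control libraries and FSHR at rank 1158 and 1164, while DHH was at rank 9975 and 10027. In the knockdown the order was kept except that GATA4 stood above CITED1. Neighbours in the control order were separated by more than the spread of their libraries except AMHR2 and DHH, whose values overlapped.

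**Figure D1:**
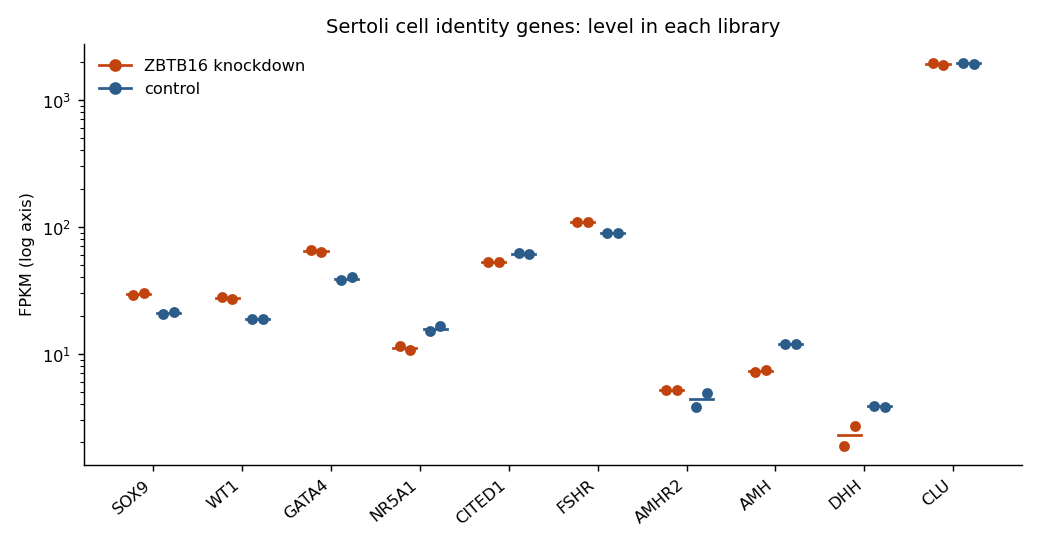
FPKM of each gene (log axis) in each library, with dots for libraries and a bar for the mean of 2, ZBTB16 knockdown left of control. SOX9, WT1, GATA4 and FSHR sit higher in both knockdown libraries, AMH, DHH and NR5A1 lower, and CLU, at 1882 to 1943 FPKM, overlaps between the groups.

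SOX9 is the HMG-box factor that starts Sertoli cell differentiation downstream of SRY. It lies on chromosome 12 (8642154 to 8647315, minus strand, Sscrofa11.1) and has a single annotated transcript. SOX9 was at 29.2 and 29.9 FPKM in the knockdown libraries, against 20.6 and 21.3 FPKM in the control libraries, from 1824 and 1667 counts in the knockdown and 1181 and 1126 counts in the control. Both knockdown libraries were above both control libraries, and the gene rose by a log2 change of 0.54 (SE 0.043, edgeR adjusted p = 3.25e-24).

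WT1, a zinc finger factor needed to keep Sertoli cell identity in the mouse, lies on chromosome 2 (28411467 to 28456007, plus strand). Its level was 28.0 and 27.1 FPKM in the knockdown and 18.9 FPKM in each control library. The groups were apart, and WT1 rose by 0.36 on the log2 scale of the counts (SE 0.0498, edgeR adjusted p = 2.60e-10). A long noncoding RNA of the opposite strand, LOC102161978, overlaps its first bases, and the sources used here do not say whether reads were counted by strand. That RNA was at 13.4 and 13.9 FPKM in the knockdown, against 13.9 and 15.7 in the control (edgeR adjusted p = 0.846).

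GATA4, a zinc finger factor that activates Sertoli and Leydig genes, lies on chromosome 14 (14858470 to 14938156, plus strand). It had 65.8 and 63.0 FPKM in the knockdown libraries and 38.1 and 40.1 FPKM in the control libraries. It rose by 0.33 on the log2 scale of the counts (SE 0.0301, edgeR adjusted p = 2.77e-20), a smaller step than that of its FPKM. FPKM divides by a deposited transcript length, and for GATA4 that length itself differed between the groups, as given with the isoforms.

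NR5A1, the nuclear receptor also called steroidogenic factor, went the other way. It lies on chromosome 1 (265284491 to 265311547, minus strand) and had 11.5 and 10.8 FPKM in the knockdown, against 15.0 and 16.4 FPKM in the control. The knockdown libraries were both lower, and NR5A1 fell by 0.44 on the log2 scale (SE 0.0608, edgeR adjusted p = 1.12e-10). Because the gene also serves Leydig cells, the values of the Leydig list are given beside it. That list summed to 202.5 and 213.0 FPKM in the knockdown, against 242.0 and 237.3 FPKM in the control. Most of the sum was CYP11A1, at 144.2 and 150.5 FPKM in the knockdown, against 161.7 and 157.8 FPKM in the control (edgeR adjusted p = 0.155). STAR, CYP17A1 and LHCGR were below 1 FPKM in every library. Of 6 tested genes of the list 1 was lower and 5 did not pass, beside 46.4% of all tested genes called. The gene that fell was INSL3, a Leydig cell hormone, at 15.8 and 20.8 FPKM in the knockdown, against 34.3 and 34.5 FPKM in the control. The part of these genes in the NR5A1 result was not tested.

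CITED1, a coactivator that binds other transcription factors rather than DNA, lies on the X chromosome (58179084 to 58184778, minus strand). It was at 53.2 FPKM in each knockdown library and at 62.3 and 60.9 FPKM in the control libraries. The counts did not pass (log2 -0.08, SE 0.0569, edgeR adjusted p = 0.286). Its direction depended on the treatment of transcript length and on the unit, being 0.0145 with limma on log2(TPM + 1) (adjusted p = 0.712). With limma on log2(FPKM + 1) it passed as lower (log2 -0.21, adjusted p = 0.00521), as it did in edgeR with an effective length offset (log2 -0.16, adjusted p = 0.0224), whereas it passed as higher once the trend of transcript length was removed (log2 0.14, edgeR adjusted p = 0.0431).

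FSHR, the receptor for follicle stimulating hormone and in the testis a gene of Sertoli cells, lies on chromosome 3 (91607236 to 91775255, plus strand). It reached 108.1 and 108.8 FPKM in the knockdown and 88.5 and 88.7 FPKM in the control. Replicates lay within 1 FPKM of each other, and FSHR rose 1.29-fold by counts (log2 0.37, SE 0.0273, edgeR adjusted p = 1.62e-26). AMHR2, the type 2 receptor that binds AMH, had 5.17 and 5.20 FPKM in the knockdown libraries and 3.81 and 4.92 FPKM in the control libraries (chromosome 5, 18642212 to 18648859, plus strand). Both control libraries were lower but far apart, and the counts did not pass (log2 0.17, SE 0.129, edgeR adjusted p = 0.305). Without control replicate 1 the log2 change was 0.02 and without control replicate 2 it was 0.31.

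AMH, the hormone of immature Sertoli cells that makes the Müllerian ducts regress, lies on chromosome 2 (76415564 to 76418315, plus strand). It was at 7.20 and 7.38 FPKM in the knockdown, against 11.9 and 12.0 FPKM in the control, from 208 and 191 counts in the knockdown and 308 and 288 counts in the control. AMH fell to 0.644 times control (log2 -0.64, SE 0.0971, edgeR adjusted p = 5.52e-09). DHH, the Hedgehog ligand by which Sertoli cells signal to Leydig cell precursors, lies on chromosome 5 (15114524 to 15119610, minus strand). It had 1.89 and 2.68 FPKM in the knockdown and 3.88 and 3.83 FPKM in the control, the lowest counts among the 10 genes (57 and 72 in the knockdown, against 105 and 96 in the control). DHH fell by 0.69 on the log2 scale (SE 0.171, edgeR adjusted p = 2.80e-04). The size of this fall rested on the knockdown libraries, which differed: without knockdown replicate 1 it was -0.46 with an edgeR adjusted p of 0.0518, and without knockdown replicate 2 it was -0.95.

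CLU, a secreted chaperone that is among the main products of Sertoli cells, lies on chromosome 14 (11336585 to 11352569, minus strand). It had 1936 and 1882 FPKM in the knockdown and 1943 and 1926 FPKM in the control, so the groups overlapped. With 43668 to 53203 counts per library the fit still placed it higher (log2 0.06, SE 0.0161, edgeR adjusted p = 3.28e-04). The call was absent without knockdown replicate 1 (log2 0.04, edgeR adjusted p = 0.11) and in the fit with an effective length offset (log2 0.03, edgeR adjusted p = 0.0903), and with limma on log2(FPKM + 1) the sign turned (log2 -0.02, adjusted p = 0.5). The rise was larger with the length trend removed (log2 0.22, edgeR adjusted p = 1.57e-34) and with limma on log2(TPM + 1) (log2 0.21, adjusted p = 0.00167).

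**Figure D2:**
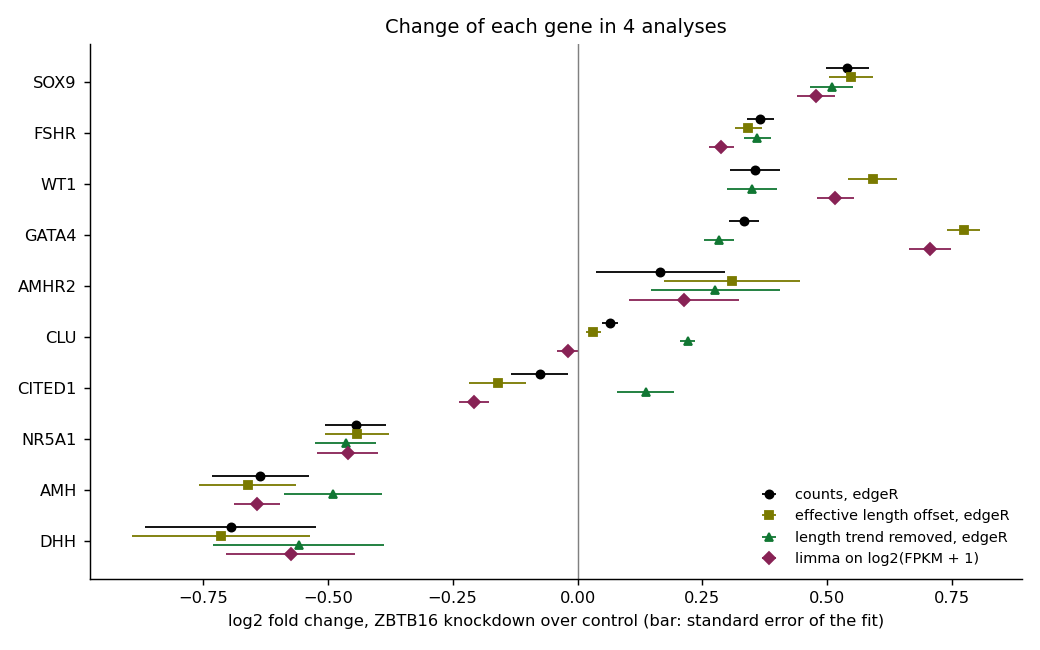
Log2 fold change of each gene, ZBTB16 knockdown over control, with bars for its standard error, in 4 analyses: edgeR on counts, edgeR with an effective length offset, edgeR with the length trend removed, and limma on log2(FPKM + 1). The signs of SOX9, FSHR, WT1, GATA4, AMHR2, NR5A1, AMH and DHH are the same in all 4, those of CITED1 and CLU are not, and GATA4 lies at 0.33 by counts and 0.77 with the length offset.

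Ratios of members within a library do not depend on how libraries are scaled, though by FPKM they do depend on the transcript lengths used. The ratio of AMH to SOX9 by FPKM was 0.246 and 0.247 in the knockdown, against 0.576 and 0.564 in the control. NR5A1 over SOX9 was 0.393 and 0.361 in the knockdown and 0.728 and 0.771 in the control, and DHH over SOX9 was 0.0647 and 0.0897 in the knockdown, against 0.188 and 0.180 in the control. FSHR over AMH was 15.0 and 14.7 in the knockdown and 7.45 and 7.40 in the control. AMHR2 over AMH was 0.718 and 0.705 in the knockdown, against 0.321 and 0.410 in the control. Smaller shifts were those of WT1 over GATA4 (0.425 and 0.43 in the knockdown, 0.497 and 0.473 in the control) and CITED1 over CLU (0.0275 and 0.0283, against 0.0320 and 0.0316). These pairs were chosen after the values were seen and were not tested.

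Levels of all genes shifted with the unit. Over the tested genes detected in every library the median log2 ratio of knockdown to control was -0.05 by FPKM and 0.17 by TPM (the share of a gene among all transcripts of its library). Relative to that median CITED1 was at -0.16 and CLU at 0.04 on both scales, SOX9 at 0.55, AMH at -0.66 and NR5A1 at -0.44.

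For GATA4 and WT1 the estimated mix of transcripts also moved. The deposited length of a gene is a mean over its transcripts weighted by their estimated abundance. For GATA4 it was 3665 and 3702 bases in the knockdown libraries, against 5001 and 4703 bases in the control libraries, and thus fell by 24.1%. For WT1 it was 2616 and 2700 bases in the knockdown and 3009 and 3147 bases in the control, and fell by 13.6%. AMHR2 was at 1960 and 1941 bases in the knockdown, against 2195 and 2094 in the control. In the other 7 genes the mean moved by 1.50% or less. Of the 15763 tested genes 304 (1.93%) were at least 10% shorter in the knockdown with the groups apart, and 264 (1.68%) at least 10% longer, a limit chosen after the values were seen.

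The annotated GATA4 transcripts run from 1329 to 5367 bases and those of WT1 from 2103 to 3841 bases, and the authors' tables add 3 and 2 transcripts assembled from reads. The tables used here give no value per transcript, so the isoforms behind the shift are not named. In the fit with an effective length offset the log2 change was 0.77 for GATA4 (edgeR adjusted p = 3.88e-17) and 0.59 for WT1 (7.96e-11), against 0.33 and 0.36 by counts alone. The part of the shorter fragments in these estimates was not tested.

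**Figure D3:**
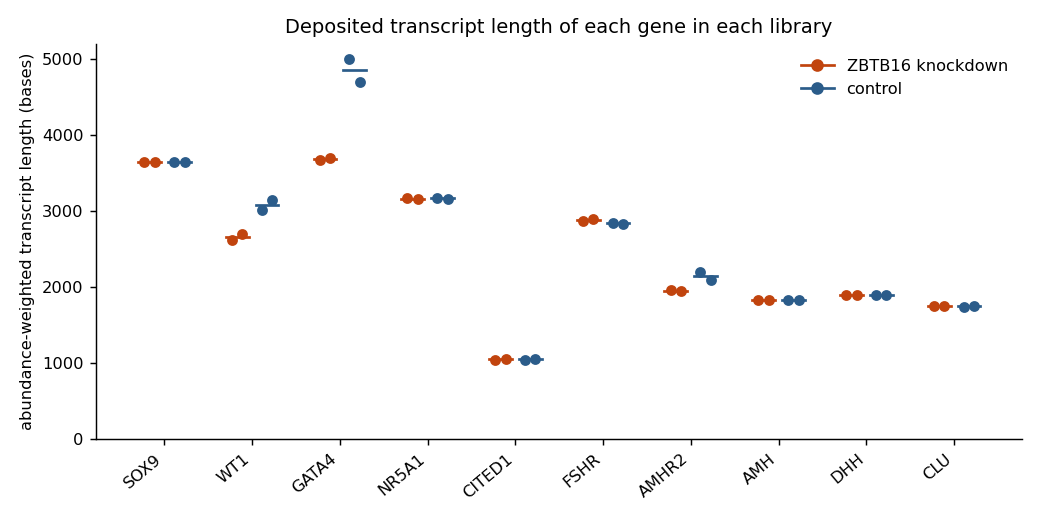
Abundance-weighted transcript length of each gene, in bases, in each library (dots; bar, mean of 2), ZBTB16 knockdown left of control. GATA4, WT1 and AMHR2 are shorter in both knockdown libraries, and the other 7 genes lie at the same length in both groups to within 1.50%.

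Members of the group regulate each other: NR5A1, GATA4, WT1 and SOX9 act on the AMH promoter in mammals. The 250 bases before the most upstream annotated start of each gene were therefore searched on both strands for the letters AAGGTCA (bound by NR5A1), AACAAT (bound by SOX factors), AGATAA (bound by factors of the GATA family) and its variant TGATAA (bound by the same family). The AMH and FSHR windows, each with a match, are shown from the RefSeq Sscrofa11.1 genome, with matches in capitals and the last base next to the start. In the AMH window, on the plus strand at chr2:76415314-76415563, AAGGTCA stands at bases -87 to -81. In the FSHR window (chr3:91606986-91607235, plus strand) the capitals, TTATCT, mark a match to AGATAA that lies on the opposite strand.
AMH: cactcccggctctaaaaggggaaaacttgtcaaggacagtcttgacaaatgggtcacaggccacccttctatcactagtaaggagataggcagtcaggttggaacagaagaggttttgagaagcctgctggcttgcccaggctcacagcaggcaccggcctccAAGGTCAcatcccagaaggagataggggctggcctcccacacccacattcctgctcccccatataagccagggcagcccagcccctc
FSHR: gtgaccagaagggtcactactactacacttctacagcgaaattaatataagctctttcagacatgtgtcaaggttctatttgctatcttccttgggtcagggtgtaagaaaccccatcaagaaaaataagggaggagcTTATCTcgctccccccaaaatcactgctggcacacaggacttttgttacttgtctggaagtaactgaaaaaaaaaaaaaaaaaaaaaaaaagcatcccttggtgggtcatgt

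Among 19531 windows of protein-coding genes 3.2% held the NR5A1 letters, 7.07% the SOX letters and 13.3% the GATA letters. Of the 10 members 1 held the NR5A1 letters, 0 the SOX letters and 2 the GATA letters, too few for a comparison with these shares. Other forms of the GATA letters were not searched. AGATAG, such a form, stands unmarked in the AMH window and, on the opposite strand, in the FSHR window. A match is a description of letters, and binding was not measured here.

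Of 40 other genes tied to Sertoli cells, 39 were in the tables and 32 were tested. In the knockdown 9 rose, 2 fell and 21 did not pass (34.4% called, against 46.4% of all tested genes), with a median log2 change of 0.11. Genes of cell contacts led the rises. CLDN11, the claudin of the Sertoli cell tight junction, was at 691 and 721 FPKM in the knockdown and 587 and 571 FPKM in the control (log2 0.51, edgeR adjusted p = 9.28e-41). TJP1, a scaffold of tight junctions, had 54.9 and 53.1 FPKM in the knockdown, against 43.8 and 43.4 FPKM in the control (log2 0.33). CDH2, N-cadherin, had 51.1 and 52.0 FPKM in the knockdown and 42.1 and 42.7 FPKM in the control (log2 0.32).

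A cofactor and a relative of GATA4 rose too. ZFPM2, a cofactor that binds GATA4 in the gonad, was at 18.9 and 17.8 FPKM in the knockdown, against 11.5 and 11.8 FPKM in the control (log2 0.59, edgeR adjusted p = 3.36e-22). GATA6, a related GATA factor, was at 33.4 and 33.1 FPKM in the knockdown and at 24.7 FPKM in each control library (log2 0.45). INHBB, a subunit of inhibin B and activin B, rose by 0.38 (10.2 and 9.97 FPKM in the knockdown, against 8.75 and 7.44 in the control). KITLG, the ligand of the KIT receptor on germ cells, rose by 0.18, a call absent with the length trend removed (log2 0.06, edgeR adjusted p = 0.24) and with limma on log2(FPKM + 1) (adjusted p = 0.0512). INHBA, an activin subunit, rose by 0.49 on the log2 scale and was named after its values were seen.

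Falls among these genes were those of LDHA, lactate dehydrogenase A, and PTGDS, prostaglandin D synthase, the second named after its values were seen. LDHA was at 348 and 353 FPKM in the knockdown and 403 and 405 FPKM in the control, and PTGDS at 117 and 105 FPKM in the knockdown, against 155 and 158 in the control. Neither passed once the length trend was removed (log2 0.03 and 0.08, edgeR adjusted p = 0.235 and 0.205). GDNF, the Sertoli factor for stem spermatogonia, was at 18.2 and 15.9 FPKM in the knockdown, against 16.7 and 16.5 FPKM in the control. It did not pass, and neither did INHA (log2 -0.07), DMRT1 (0.31) or SOX8 (0.02), a relative of SOX9 at 1.95 and 1.74 FPKM in the knockdown and 1.89 FPKM in each control library. Once the length trend was removed DMRT1 passed as higher (log2 0.39, edgeR adjusted p = 0.0414).

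Among genes of the signalling pathways of DHH, AMH and FSH, the share called was near that of all tested genes for lists of 9 to 14 genes. Of 14 tested Hedgehog genes 4 rose, 1 fell, DHH itself not among them, and 9 did not pass (35.7% called, against 46.4% of all tested genes). PTCH1, at once the Hedgehog receptor and a target of the pathway, was at 4.63 and 4.04 FPKM in the knockdown, against 3.39 and 3.42 FPKM in the control (log2 0.48, edgeR adjusted p = 1.04e-08). GLI1 and HHIP, also targets of the pathway, did not pass: GLI1 was at 0.40 and 0.35 FPKM in the knockdown and 0.30 and 0.41 in the control, and HHIP at 1.02 and 1.10 in the knockdown, against 0.90 and 1.10 in the control. GLI3, SUFU and DISP1, the last a gene of ligand release, rose by 0.47, 0.24 and 0.31 on the log2 scale, and GAS1 fell by 0.17. SUFU was at 0.15 without knockdown replicate 1, and its call was absent with limma on log2(FPKM + 1) (adjusted p = 0.0846). GAS1 was at -0.13 without knockdown replicate 2. Its call was absent with DESeq2 (adjusted p = 0.0848), with the length trend removed (edgeR adjusted p = 0.0564) and with limma on log2(TPM + 1) (adjusted p = 0.935).

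**Figure D4:**
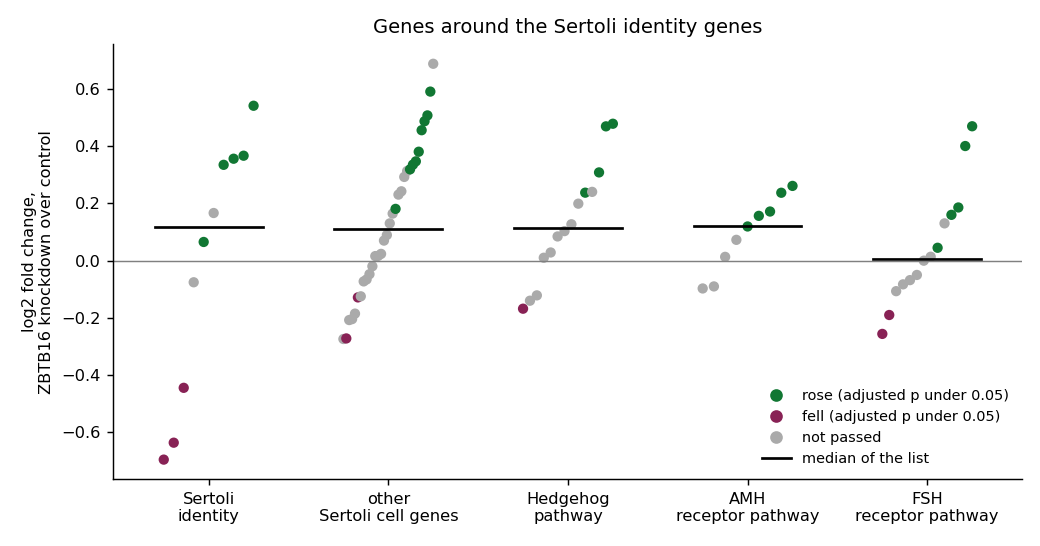
Log2 fold change by edgeR, ZBTB16 knockdown over control, of each tested gene in 5 lists, coloured by whether it rose, fell or did not pass, with a bar for the list's median. The identity genes spread from -0.69 (DHH) to 0.54 (SOX9), and the 3 pathway lists lie mostly between -0.3 and 0.5.

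Of 9 genes that carry or inhibit the AMH signal behind AMHR2, 5 rose and 4 did not pass, the inhibitory SMAD6 and SMAD7 among the latter (55.6% called, against 46.4% of all tested genes). BMPR1A, a type 1 receptor used by AMH, rose by 0.26 by counts, but the fit with an effective length offset gave a log2 change of 0.09 (edgeR adjusted p = 0.0958). SMAD4, the common partner SMAD, rose by 0.24 and ACVR1, another type 1 receptor, by 0.17. BMPR1B, a further type 1 receptor, rose by 0.16 (adjusted p = 0.0418), a call lost without any of the 4 libraries (edgeR adjusted p of 0.0531 to 0.23). SMAD9 rose by 0.12 (adjusted p = 0.021), a call lost without either control library (edgeR adjusted p = 0.0864 and 0.117) or without knockdown replicate 2 (0.163). Of 14 tested genes behind FSHR 5 rose, 2 fell and 7 did not pass (7 of 14 called, against 46.4% of all tested genes). IRS2 and PDE4D rose by 0.40 and 0.47. PRKAR1A, a regulatory subunit of protein kinase A, fell by 0.26 (199 and 202 FPKM in the knockdown, against 241 and 244 in the control). PRKACB, a catalytic subunit, rose by 0.16 and PDE4B, a phosphodiesterase, by 0.19, the second call being absent with limma on log2(FPKM + 1) (adjusted p = 0.143). ADCY6, an adenylyl cyclase, fell by 0.19. GNAS, named after its values were seen, had a log2 change of 0.04 whose call was lost without any of the 4 libraries (edgeR adjusted p of 0.0719 to 0.194).

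Markers of other cells give the setting of these levels. All 10 Sertoli genes had at least 1 FPKM in every library. Most germ cell markers were present at lower levels: DDX4, a germ cell RNA helicase, was at 2.01 and 1.86 FPKM in the knockdown and 2.3 and 1.96 FPKM in the control, and the median of 14 such markers was 2.82 FPKM in the knockdown and 2.76 in the control. LIN28A, a marker of undifferentiated spermatogonia, had 2 counts or fewer in every library, whereas UCHL1 was at 89.1 and 85.3 FPKM in the knockdown and 122 and 120 FPKM in the control. ID4 was at 26.9 and 29.9 FPKM in the knockdown and 24.5 and 24.6 in the control. ETV4 was at 20.1 and 18.7 FPKM in the knockdown and 23.5 and 24.0 in the control. Both were named after their values were seen. The median of the Sertoli genes was 28.5 FPKM in the knockdown and 19.9 in the control. By median the fibroblast list (405.5 FPKM in the knockdown and 412.8 in the control) and the peritubular list (138.0 and 131.2) stood highest. ACTA2, smooth muscle actin, was at 3508 and 3440 FPKM in the knockdown, against 3209 and 3198 FPKM in the control. The Sertoli gene CLU stood above every fibroblast gene listed. The libraries labelled as spermatogonia thus held peritubular, fibroblast and most Sertoli genes at higher levels than DDX4, and the shares of the cell types were not measured.

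The sums and edgeR calls of these lists follow, to be read beside the 46.4% of all tested genes called (22.7% higher and 23.8% lower). The 7 peritubular markers summed to 5617 and 5514 FPKM in the knockdown and 5732 and 5650 FPKM in the control (6 rose, 1 fell). The lower sum in the knockdown came from TAGLN, transgelin, the member that fell, at 1442 and 1418 FPKM in the knockdown, against 1918 and 1846 FPKM in the control. For 6 fibroblast markers the sums were 2548 and 2535 FPKM in the knockdown, against 2745 and 2738 FPKM in the control (1 rose, 4 fell, 1 did not pass). The 7 macrophage markers summed to 69.5 and 64.3 FPKM in the knockdown and 126.6 and 129.9 FPKM in the control (1 rose, 4 fell, 2 did not pass). Most of that difference was TYROBP, a signalling adaptor of myeloid cells, at 45.6 and 37.9 FPKM in the knockdown, against 92.2 and 91.7 FPKM in the control (by counts 0.591 times control, edgeR adjusted p = 2.51e-12). CD163 was lower too, at 0.52 and 0.76 FPKM in the knockdown, against 0.91 and 1.04 in the control, whereas PTPRC rose (log2 0.44, edgeR adjusted p = 0.00611) and CSF1R did not pass (log2 0.06). TAGLN, TYROBP, PTPRC and CSF1R were named after their values were seen. The 5 endothelial markers summed to 10.7 and 9.61 FPKM in the knockdown and 12.4 and 10.8 FPKM in the control (1 fell, 4 did not pass). The 14 germ cell markers summed to 161.0 and 157.5 FPKM in the knockdown, against 198.2 and 197.0 FPKM in the control, and of the 13 tested, ZBTB16 among them, 4 rose and 5 fell. Most of the difference in that sum was UCHL1, at 89.1 and 85.3 FPKM in the knockdown, against 122 and 120 in the control. The sum thus says little of the other germ cell markers. The 10 Sertoli genes, dominated by CLU, summed to 2246 and 2190 FPKM in the knockdown and 2206 and 2193 FPKM in the control. The part of other cells in the changes of the Sertoli genes was not tested.

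**Figure D5:**
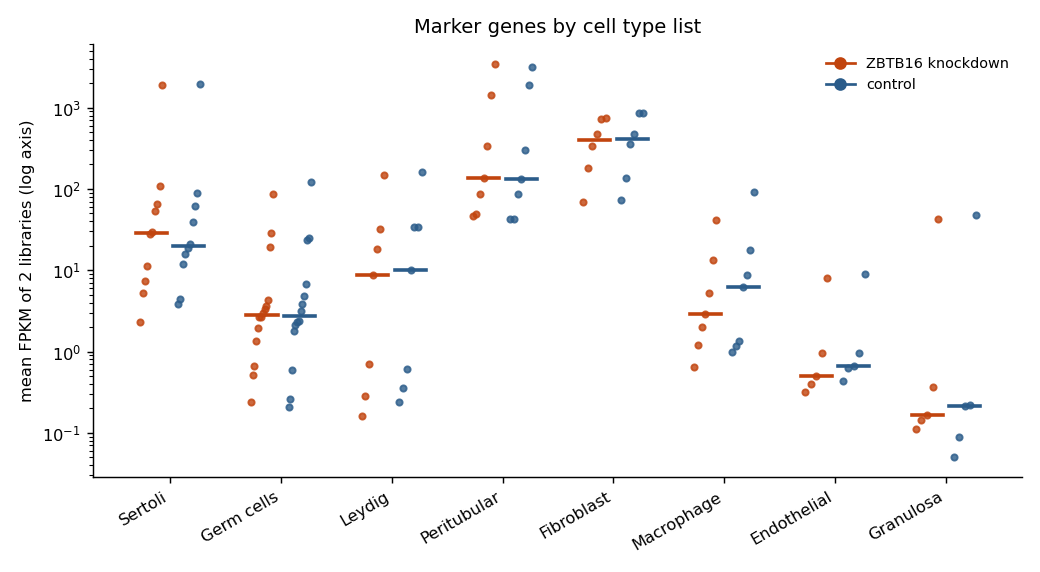
Mean FPKM of 2 libraries (log axis) of each marker gene in 8 cell type lists, ZBTB16 knockdown left of control, with a bar for the median of the list. Sertoli medians of 28.5 (knockdown) and 19.9 FPKM (control) lie above the germ cell medians of 2.82 and 2.76 FPKM and below those of peritubular and fibroblast genes.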

How the data were processed

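Total RNA of 4 cultures was sequenced as mRNA libraries on an MGI instrument, per the labels' protocols. Per the labels, the authors filtered reads with SOAPnuke 2.1.0, aligned them with HISAT2 2.2.1 to Sscrofa 11.1, mapped them to transcripts with bowtie2 2.3.5 and counted with RSEM 1.3.3. The deposited expected counts share reads among the transcripts they fit, so that between 83.7% and 84.7% of those above 0 were whole. FPKM and TPM, and for each gene a mean and an effective transcript length, were also deposited by the authors. The strand setting is not given in the sources.

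Groups and replicate numbers came from the sample titles. Expected counts were rounded and tested with edgeR 4.0.16 in R 4.3.3 (TMM, filterByExpr with a minimum count of 10 and total of 15, quasi-likelihood test, two-sided, Benjamini-Hochberg over 15763 genes, threshold 0.05). The standard error is the log2 change divided by the root of the F statistic. The common biological coefficient of variation was 0.0129. An exact permutation test of 2 against 2 libraries cannot go below 0.333. The script was tested on simulated counts with known changes. Alternatives used DESeq2 1.42.0, limma 3.58.1 on log2(FPKM + 1), log2(FPKM + 0.1) and, added after seeing the data, log2(TPM + 1) for genes of at least 1 FPKM in 2 libraries, and a length trend fitted with mgcv 1.9.3.

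The members, lists and rule for named genes were chosen with earlier results of these data known: all 10 members, ZBTB16, and in each other list up to 6 genes with the smallest p and a mean of at least 1 FPKM, with PTCH1, GLI1, HHIP, SOX8, DMRT1, INHA, INHBB, KITLG and GDNF in any case. Marker lists were planned as a description by levels with no test, and the edgeR calls and adjusted p-values given for them are an addition to that plan. CYP26B1, NR4A1 and HSD3B, 3 symbols of the lists, are not analysed here, and some genes and sequences are not reported here. Coordinates and sequence are from RefSeq Sscrofa11.1, the build the labels name.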

Additional observations from a re-analysis of the deposited data

How the results depend on the processing

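Over 15 alternatives the 10 identity genes gave 150 values, of which 138 kept direction and side of the threshold, 4 lost the call, 4 gained it and 4 reversed. A reversed value was counted only as reversed, also where its call changed. The 15 include the main fit at an unadjusted p under 0.05, which can neither lose a call nor turn a sign. SOX9, WT1, GATA4, FSHR, AMH and NR5A1 kept theirs in all 15. CLU was at -0.0196 with limma at either FPKM pseudocount. CITED1 was at 0.14 with the length trend removed and 0.0145 with limma on log2(TPM + 1). DHH had an adjusted p of 0.0501 with limma on log2(TPM + 1), and AMHR2 passed there as higher (log2 0.42, adjusted p = 0.0299). Over all genes edgeR called 3574 higher and 3745 lower, DESeq2 2343 and 2472. Limma called 2038 higher on log2(FPKM + 1), 2034 on log2(FPKM + 0.1), and 5449 higher and 1898 lower on log2(TPM + 1). Among the other Sertoli genes 15 were higher and 1 lower on log2(TPM + 1), and 1 was lower with the length trend removed. Among the 3 pathway lists (14 higher and 3 lower in edgeR) limma called 8 higher on log2(FPKM + 1) and 8 on log2(FPKM + 0.1). In those lists 5 were lower with library totals only, 6 with the length trend removed and 0 with limma on log2(TPM + 1), where 0 had an unadjusted p under 0.05. The cause of these differences was not tested. With the replicate number as a block 3674 genes were higher and 3806 lower, and no call of an identity gene changed. Deviations of same-numbered libraries correlated at 3.6e-04 over genes, so the block is given here only. DHH rests on low counts, 57 to 105 a library.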

Other observations

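Of the other factors tied to the early gonad, 5 that were low in the culture are given here, picked after their values were seen; GATA6 and ZFPM2 stood higher, at the levels given above. SRY, the Y-linked trigger of testis development in the fetus, had at most 1 count in a library, and FGF9, a signal that sustains SOX9 in the mouse, had at most 3. LHX9, a LIM homeobox factor of the gonadal ridge, was at 1.63 and 1.42 FPKM in the knockdown, against 1.22 and 1.62 FPKM in the control (edgeR adjusted p = 0.48). EMX2, another homeobox factor of the ridge, was at 0.86 and 0.73 FPKM in the knockdown and 0.92 and 0.60 FPKM in the control. NR0B1, a nuclear receptor that opposes NR5A1, had 4 and 5 counts in the knockdown, against 13 and 8 in the control, and did not reach the filter on low counts.

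Genes of the ovarian counterpart of Sertoli cells were near the floor with an exception, and the 5 markers summed to 43.8 and 44.2 FPKM in the knockdown, against 47.9 and 48.7 FPKM in the control. FOXL2, the factor that keeps granulosa cells in their state, had 3 and 2 counts in the knockdown and 5 and 1 in the control, and CYP19A1, aromatase, had 5 counts or fewer in each library. FST, follistatin, was at 43.0 and 43.4 FPKM in the knockdown, against 47.1 and 48.3 FPKM in the control (log2 -0.14, edgeR adjusted p = 0.00381).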
